A study of Mus musculus with 2 samples.

Results

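Pericyte-like cells were found among Tomato-positive cells sorted from the meninges, dorsal root ganglia and nerve roots of mouse embryos traced with *Egr2-Cre*. They were chosen by measured values, as kept cells with at least 1 unique molecular identifier (UMI, 1 counted transcript molecule) of 3 or more of the 6 genes *Rgs5*, *Pdgfrb*, *Kcnj8*, *Abcc9*, *Vtn* and *Cspg4*, with *Rgs5* or *Kcnj8* among them and no UMI of *Sox10*. There were 100 such cells among 4403 kept cells (53 of 840 at E11.5, 47 of 3563 a day later at E12.5).

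Both groups were *Egr2Cre/+*; *R26-Tomato* embryos, harvested at E11.5 or at E12.5, and each stage gave 1 droplet library (10x 3′ chemistry) of 1 pooled litter. *Egr2* (*Krox20*) marks boundary cap cells, a neural crest derivative at the points where nerve roots meet the spinal cord, and its Cre allele switches on Tomato permanently in every cell that has expressed it and in that cell's progeny. A Tomato-positive cell therefore need not express *Egr2* at harvest, and Tomato itself was not among the counted genes. With 1 library per stage there is no replicate, so no test was made, and stage, litter and library cannot be told apart. Every interval below is a 95% exact interval (binomial for shares, Poisson for levels and ratios) and covers counting error only.

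Pericytes are mural cells embedded in the basement membrane of capillaries. Endothelial cells recruit them with the growth factor PDGF-B, which acts on the receptor encoded by *Pdgfrb*, and they steady the young vessel wall and regulate its calibre and permeability. Smooth muscle cells are the mural cells of larger vessels, and build a contractile apparatus of smooth muscle actin, myosin and their binding proteins. In the head and around the spinal cord some mural cells descend from the neural crest and others from mesoderm.

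The E11.5 library held 10287595 UMIs in 1431 barcodes and the E12.5 library 23460243 UMIs in 3762 barcodes. The median kept cell had 11607 UMIs in the first library and 6183 in the second, whereas the median pericyte-like cell had 8140 and 6440. Of the barcode sequences, 9 occurred in both libraries, 7 among kept cells and 0 among pericyte-like cells. No pericyte-like cell reached a doublet score of 0.2, and the highest scores were 0.0534 in the earlier library and 0.128 in the later one.

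Pericyte-like cells made up 6.31% (4.76–8.17) of kept cells in the E11.5 library and 1.32% (0.971–1.75) in the E12.5 library. The sort and the dissection can set these shares. Each library was also clustered without the 6 gate genes and *Sox10*. At E11.5, 52 of the 53 cells fell into 1 cluster of 55 cells, led by *Gja4*, *Cldn5*, *Ecscr*, *Foxq1* and *Ndufa4l2*, and the remaining cell lay in a cluster of 91 cells led by globin genes. *Cldn5*, *Ecscr* and *Emcn*, among the leading genes of the 55-cell cluster, are endothelial. *Cldn5* had 0 UMIs in the 53 cells and came from 2 cells of the cluster that did not meet the gate, whereas 73 of the 124 UMIs of *Ecscr* and 73 of the 91 of *Emcn* in the cluster were in the 52 cells. At E12.5, 29 of the 47 cells fell into 1 cluster of 44 cells, led by *Cldn5*, *Acta2*, *Cnn1* and *Ndufa4l2*. The next genes included *Tagln*, *Actg2* and *Actc1*, so that contractile genes outnumbered pericyte genes among the leading 10, and *Cldn5* again had 0 UMIs in the 47 cells and came from 3 cells that did not meet the gate. The leading genes of these clusters therefore did not by themselves bear out a pericyte name, and pericyte-like is used here for cells that met the gate. The other 18 cells lay in a cluster of 187 cells led by *Osr1*, *Meox2*, *Slc6a13*, *Cxcl12*, *Dcn*, *Pdgfra* and *Lum*, which are genes of fibroblast-like and meningeal mesenchyme. The leading genes of that cluster go against the pericyte name for these 18 cells. Results between the stages are given for all pericyte-like cells, for the 52 and 29 cells of the main clusters, or for both, as stated. Those 52 and 29 cells made up 6.19% (4.66–8.04) and 0.814% (0.546–1.17) of kept cells.

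**Figure D1:**
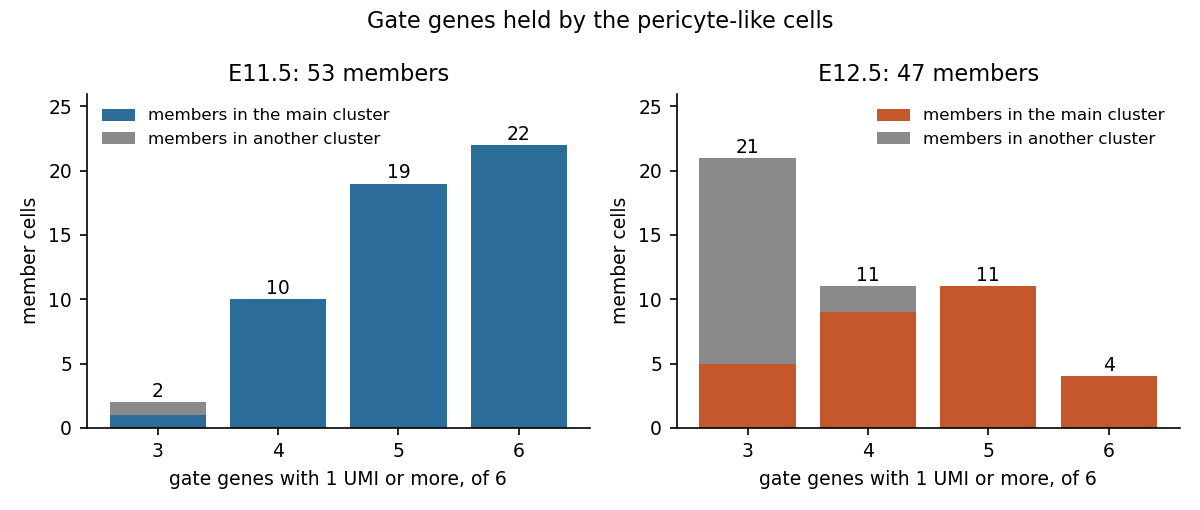
Number of pericyte-like cells (vertical axis) by how many of the 6 gate genes had 1 UMI or more (horizontal axis), at E11.5 (left) and E12.5 (right), with cells of the main cluster in colour and cells of other clusters in grey. At E11.5, 22 of 53 cells held all 6 genes, and at E12.5 21 of 47 held only 3, of which 16 lay outside the main cluster.

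The 2 stages differed in how far their cells lay from the threshold of 3 gate genes. At E11.5, 2 cells held 3 of the gate genes, 10 held 4, 19 held 5 and 22 held all 6. Just outside, 2 cells without *Sox10* held 2 gate genes including *Rgs5* or *Kcnj8*. At E12.5, 21 cells held 3, 11 held 4, 11 held 5 and 4 held 6, and 32 cells without *Sox10* held 2 including *Rgs5* or *Kcnj8*. Cells just inside and just outside it at E12.5 were alike in depth, with a median of 6171 UMIs in the 21 and 6139 in the 32. Levels are given here as CPM, a gene's summed UMIs in a group of cells for every 1000000 UMIs of that group. *Lum* stood at 1384 CPM just inside and 908 CPM just outside, and *Acta2* at 1762 and 4548 CPM. Sitting further from the threshold, the 26 cells with 4 or more gate genes had 128 CPM of *Lum*. A further 6 E12.5 cells, against 0 in the E11.5 library, met the gate but for *Sox10*, and held 10 UMIs of it among them at a median depth of 14497 UMIs.

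Among the gate genes, *Rgs5*, an inhibitor of G protein signalling that marks mural cells, had between 1 and 25 UMIs per cell at E11.5 with a median of 7 (53 cells). In the 29 main-cluster cells of E12.5 it had between 1 and 26 with a median of 7, and in the 18 other cells between 0 and 6 with a median of 2.5. The main-cluster levels were 1031 CPM at E11.5 and 1206 CPM at E12.5, a ratio of 1.17 (0.995–1.37). *Vtn*, which encodes the adhesive glycoprotein vitronectin, stood at 1060 and 1231 CPM, a ratio of 1.16 (0.991–1.36), and at 1463 CPM in the 18 other cells. *Pdgfrb*, the PDGF receptor, was at 268 and 314 CPM, a ratio of 1.17 (0.847–1.61). *Cspg4*, the NG2 proteoglycan of immature mural cells, was at 113 and 87.6 CPM, a ratio of 0.775 (0.419–1.36). For these 4 genes the interval of the ratio included 1. The gate chose the cells on all 6 genes, so their presence, levels and stage ratios are descriptions of the chosen cells and not findings.

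The other gate genes, *Kcnj8* and *Abcc9*, encode the pore and the regulatory subunit of an ATP-sensitive potassium channel of mural cells. They are neighbours on chromosome 6 of GRCm39, *Kcnj8* at chr6:142510563-142517830 and *Abcc9* at chr6:142533588-142648571, both on the minus strand, with 15757 bases and 0 annotated genes between them. In the cells chosen with their help, both stood lower at E12.5, again as a description. *Kcnj8* had a median of 5.5 UMIs per cell (lowest 0, highest 18) in the 52 cells of E11.5 and of 2 (0 to 9) in the 29 cells of E12.5, with overlapping ranges. Its level was 736 CPM at E11.5 and 438 CPM at E12.5, a ratio of 0.595 (0.463–0.757). *Abcc9* had a median of 3 UMIs (0 to 8) in the earlier cells and of 1 (0 to 6) in the later ones, and its level was 397 and 180 CPM, a ratio of 0.454 (0.307–0.656). In the 18 other cells the levels were 16.9 CPM of *Kcnj8*, held by 2 cells, and 25.4 CPM of *Abcc9*, held by 3. Over all pericyte-like cells the ratios were 0.38 (0.297–0.482) for *Kcnj8* and 0.309 (0.212–0.44) for *Abcc9*, further from 1 than within the main clusters.

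**Figure D2:**
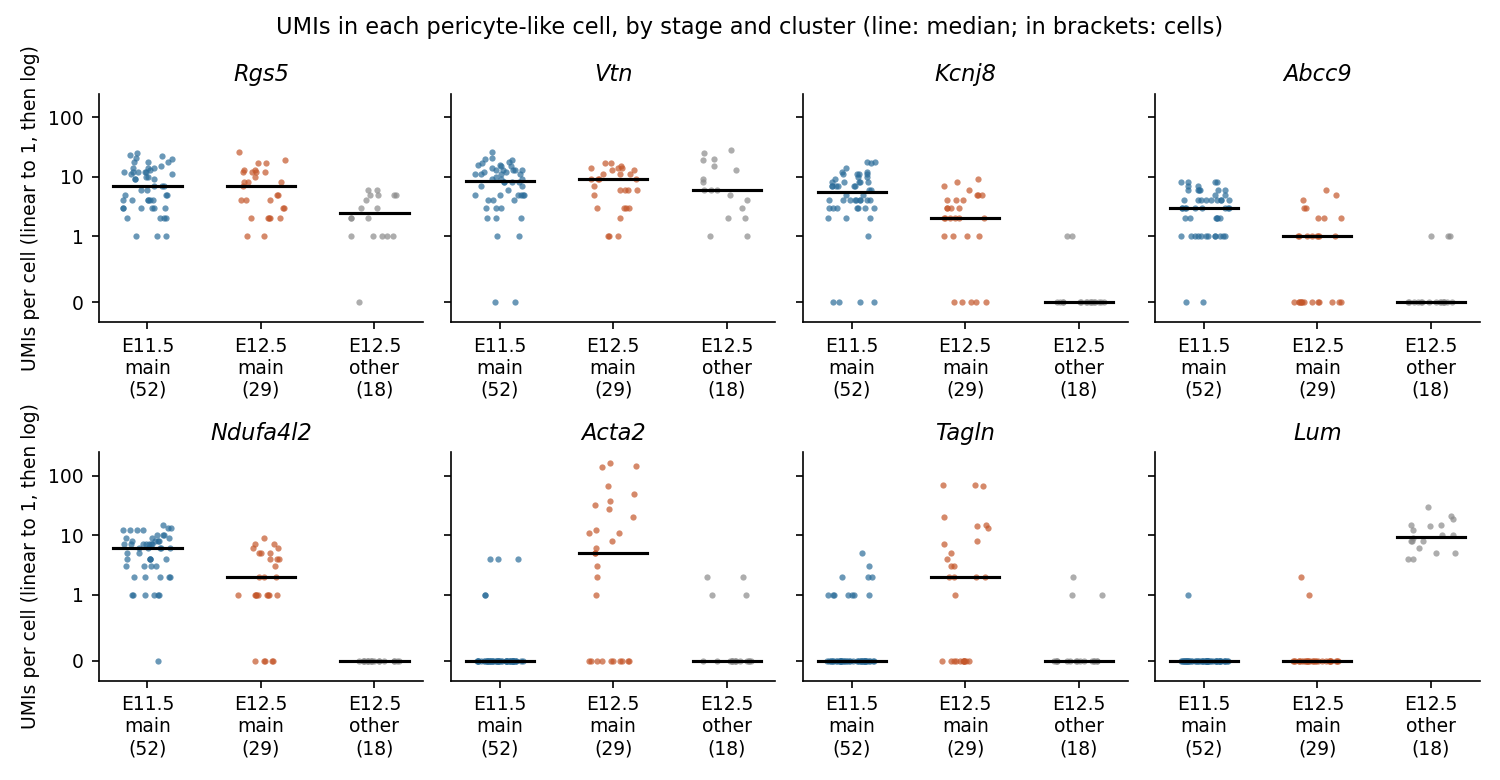
UMIs per cell (vertical axis, linear to 1 and logarithmic above) of 8 genes in the 52 main-cluster cells of E11.5, the 29 main-cluster cells of E12.5 and the 18 E12.5 cells of another cluster, with 1 point per cell and a line at the median. *Acta2* reached 163 UMIs in a main-cluster cell of E12.5 and at most 4 at E11.5, and *Lum* was in all 18 cells of the other cluster.

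The genes that stood out most from the rest of each library, which the gate did not use, were named by the smaller of their ratios at the 2 stages. This contrast is a description, since the gate chose the cells on the same profiles. Of the genes with at least 50 UMIs, 1163 of 10356 (11.2%) were 2-fold or more higher in the pericyte-like cells than in all other kept E11.5 cells, and 1851 of 12931 (14.3%) in the same contrast at E12.5. *Car4*, a membrane carbonic anhydrase, stood at 172 CPM at E11.5 and 253 CPM at E12.5, 528 (174–2616) and 182 (119–283) times its level in the rest, which held 3 and 32 UMIs of it. *Ndufa4l2*, a mitochondrial protein found in pericytes, stood at 704 and 256 CPM, 1083 (492–2973) and 168 (112–258) times the rest, which held 6 and 35 UMIs. At E12.5 the rest includes the 15 cells of the main cluster that did not meet the gate. That cluster held 104 UMIs of *Car4* and 108 of *Ndufa4l2*, of which 79 and 80 were in its pericyte-like cells, and all other clusters held 7 of each. *Igfbp7*, a secreted binding protein of insulin-like growth factors, was present in all 53 cells at E11.5 and stood at 1772 and 547 CPM, 321 (241–434) and 58.0 (47.2–71.2) times the rest. *Itga1*, a collagen-binding integrin subunit, stood at 218 and 208 CPM, and *Cd248*, the stromal glycoprotein endosialin, at 176 and 179 CPM. *Dlk1*, an imprinted transmembrane protein related to Notch ligands, stood at 1114 and 1207 CPM, and *Bgn*, the matrix proteoglycan biglycan, at 1451 and 839 CPM. *Plac9*, *Rasgrp2*, *Pid1* and *Gng11* completed the genes that met the rule. The rest was mostly glia-gated and neuron-gated cells, and several of these genes were also present in mesenchyme-gated cells. Only 7 cells with 68281 UMIs were mesenchyme-gated at E11.5, and 117 cells at E12.5, so every E11.5 level of this group rests on few cells. In mesenchyme-gated cells *Bgn* stood at 308 and 489 CPM, *Pid1* at 146 and 180 CPM and *Dlk1* at 14.6 and 191 CPM, while *Car4* and *Ndufa4l2* had no UMI at either stage. *Car4*, *Ndufa4l2* and *Rasgrp2* had 0 UMIs in the 18 cells outside the main cluster. Their E12.5 levels over all pericyte-like cells are therefore below those of the main cluster alone.

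Of 32 further mural cell genes, 3 (*Higd1b*, *Enpep* and *Atp13a5*) had no UMI at E11.5, and 1 (*Colec11*) had none at E12.5. *Higd1b*, a marker of mature pericytes, had 1 UMI in all, in a main-cluster cell of E12.5. *Ebf1*, a transcription factor of many mesenchymal and neural cells, stood at 1698 and 1113 CPM in the main clusters and at 1122 and 1439 CPM in neuron-gated cells. *Notch3*, a Notch receptor needed by mural cells, was in 11.3% (4.27–23.0) of the 53 earlier cells and 23.4% (12.3–38.0) of the 47 later ones after each cell was thinned at random to 2000 UMIs, and in 37.7% and 44.7% without thinning. The thinned shares in glia-gated cells were 6.24% and 6.06%.

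Boundary cap and glial genes, which mark the labelled identity of the sorted cells, were far below their level in glia-gated cells. Part of this gap was set by the choice of cells, so it is a description. The gate required 0 UMIs of *Sox10*, whereas glia-gated cells had to hold it and 2 or more further glial genes. *Egr2* had 3 UMIs in the 53 cells of E11.5, 1 in each of 3 cells (5.66%, 1.18–15.7), and 1 UMI in the 47 cells of E12.5 (2.13%, 0.0539–11.3). In glia-gated cells, with *Sox10* and 2 or more of 6 further glial genes, *Egr2* was in 22.9% (19.2–26.9) at a median of 12713 UMIs and in 16.2% (14.3–18.2) at 6360. In neuron-gated cells, which should lack it, it was in 2.17% (0.595–5.47) at a median of 11666 UMIs and in 2.10% (1.40–3.03) at 6481, and the intervals of the pericyte-like shares include these values. *Prss56*, the second boundary cap marker, was in 0 of the 53 earlier cells (0–6.72%) and in 1 of the 47 later ones, against 25.8% and 30.5% of glia-gated cells. Summed over 18 boundary cap and glial genes, the level was 396 and 371 CPM in the pericyte-like cells against 403 and 485 CPM in neuron-gated cells and 3208 and 5513 CPM in glia-gated cells. The list includes *Sox10*, on which the pericyte-like, neuron-gated and glia-gated cells were all chosen, and no sum without it is given. At E12.5 the sum was 227 CPM in the 29 pericyte-like cells of the main cluster and 609 CPM in the 18 others. *Fabp7*, a fatty acid binding protein of glia, was the most abundant gene of the list at both stages. *Sox10*, at 0 by the gate, *Foxd3*, *Sox8* and *Dhh* were at 0 at both stages.

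**Figure D3:**
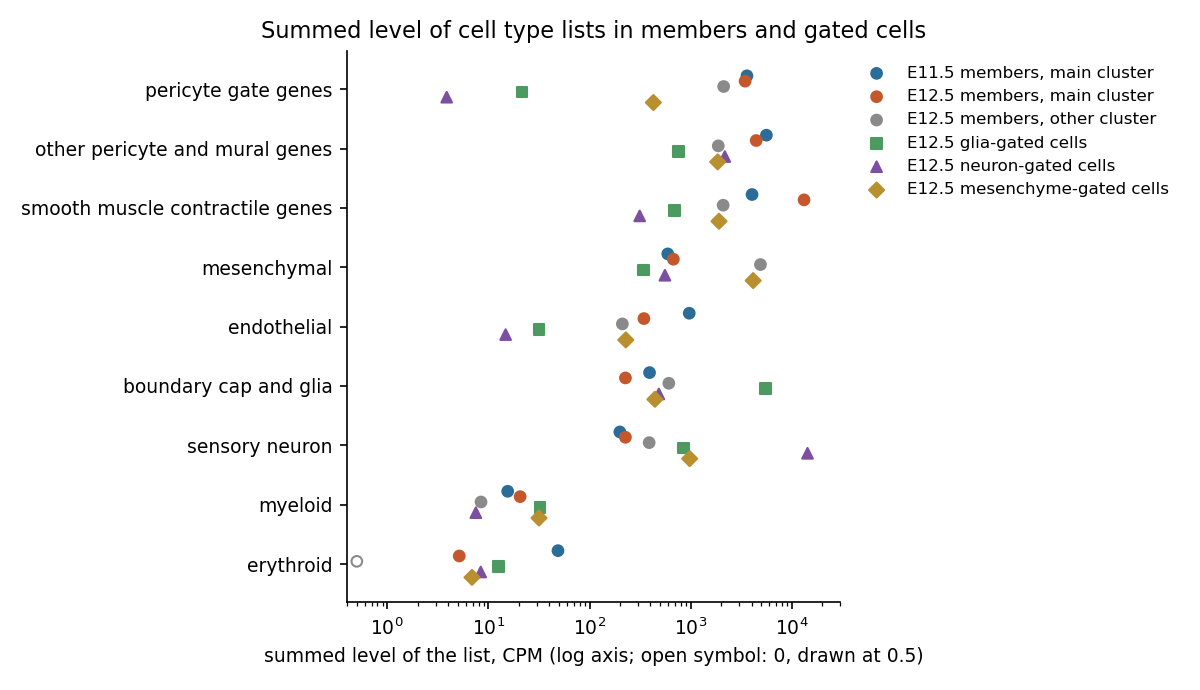
Summed level in CPM (horizontal axis, logarithmic) of 9 lists of cell type genes (rows) in the pericyte-like cells of the main clusters and of the other E12.5 cluster (circles) and in glia-gated, neuron-gated and mesenchyme-gated cells of E12.5 (square, triangle, diamond), with an open symbol for 0. The main-cluster cells lead on the mural lists, and the grey circles lie with the mesenchyme-gated cells on the mesenchymal list. The gate genes chose the pericyte-like cells, and the mesenchymal list holds the genes that chose the mesenchyme-gated cells, so these positions are descriptions.

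Genes of other cell types were compared as whole lists. Sensory neuron genes (15) summed to 198 CPM at E11.5 and 288 CPM at E12.5, against 12653 and 14328 CPM in neuron-gated cells. Myeloid genes (12) summed to 15.4 and 16.0 CPM, with 9 of them at 0 at each stage, among them *Ptprc* and the *C1qa*, *C1qb* and *C1qc* genes of macrophages. Globin and other erythroid genes (9) summed to 48.4 and 3.20 CPM. Skeletal muscle genes (8) summed to 19.8 and 115 CPM, of which *Actc1*, a sarcomeric actin, gave 83.2 CPM at E12.5 with 53.8% of its UMIs in 1 cell, while *Myod1*, *Myog*, *Myf5* and *Myf6* were at 0. Endothelial genes (15) summed to 962 and 295 CPM, and mesenchymal genes (23) to 590 and 2276 CPM. The genes of the last 2 lists are described with the stage comparison.

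Between the stages, smooth muscle contractile genes were higher at E12.5 in the main-cluster cells. Of the 2216 genes with at least 50 UMIs over both stages, 88 (3.97%) were 2-fold or more higher at E12.5 and 145 (6.54%) lower, with a median ratio of 1.00. Over all pericyte-like cells 143 of 2612 genes (5.47%) were higher and 174 (6.66%) lower. The calls shared by both counts were 56 genes higher, 39.2% of the 143 and 63.6% of the 88, and 111 lower, 63.8% of the 174 and 76.6% of the 145. Of the 10 contractile genes that reached 50 UMIs (of 18), 7 were 2-fold or more higher in either set of cells and 0 were lower, with a median log2 ratio of 2.07 in the main clusters against 0.00 over all genes.

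*Acta2*, smooth muscle actin, had 0 UMIs in 47 of the 52 main-cluster cells at E11.5 and at most 4 in the other 5. At E12.5 the 29 main-cluster cells held between 0 and 163 UMIs with a median of 5. The stages overlapped in part, since 10 of these cells had 0, while 12 had 10 or more, above every cell of E11.5. The level was 31.0 CPM (17.0–52.1) at E11.5 and 3843 CPM (3573–4129) at E12.5, a ratio of 124 (73.3–228), or of 78.1 (46.3–144) over all pericyte-like cells, which were chosen without it, and the cell with most held 21.8% of the E12.5 UMIs. The 18 other cells of E12.5 stood at 50.7 CPM. The share of cells with a UMI, thinned to 2000 UMIs, was 1.92% (0.0487–10.3) in the 52 cells and 51.7% (32.5–70.6) in the 29 cells, and without thinning 9.62% and 65.5%. Glia-gated cells had *Acta2* in 0 of 481 cells and then in 0.65%, and neuron-gated cells in 0 of 184 and 0.902%, without thinning.

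*Tagln*, the actin-binding protein transgelin, had at most 5 UMIs per cell at E11.5 and up to 71 at E12.5, where 18 of the 29 cells held it. Its level was 46.6 CPM at E11.5 and 1587 CPM at E12.5, a ratio of 34.1 (21.9–55.9), and 23.1% of its E12.5 UMIs were in 1 cell. *Myl9*, a regulatory light chain of smooth muscle myosin, was at 344 and 1695 CPM, a ratio of 4.93 (4.06–6.01). The tropomyosins *Tpm1* and *Tpm2*, which lie along actin filaments, had ratios of 5.16 (4.15–6.43) and 3.53 (2.64–4.75), and *Mylk*, the kinase of the myosin light chain, one of 3.59 (2.04–6.45). *Actg2*, *Cnn1* and *Myh11*, markers of differentiated smooth muscle, had no UMI at E11.5. Against a floor of 3 counts over the E11.5 cells they were at least 48.8-fold, 14.7-fold and 5.42-fold higher at E12.5, from 63, 19 and 7 UMIs, of which 1 cell held 44.4%, 63.2% and 42.9%. *Cald1*, *Cnn2* and *Flna*, actin-binding proteins found in many cells, were within 2-fold, with ratios of 0.954, 1.40 and 1.30. In glia-gated cells the stage ratios were 0.968 for *Tagln*, 1.06 for *Myl9* and 0.878 for *Tpm1*.

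**Figure D4:**
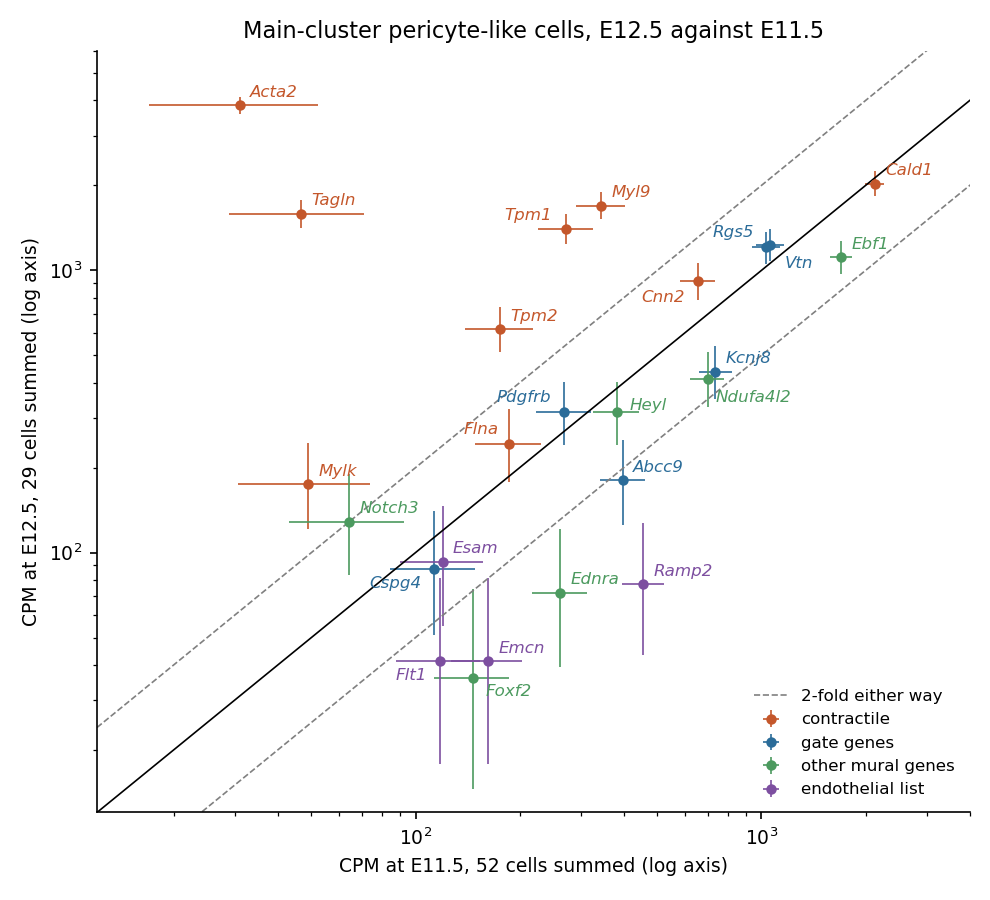
Level in CPM at E12.5 (vertical axis) against E11.5 (horizontal axis), both logarithmic, of genes summed over the main-cluster cells, with bars for the 95% counting interval, a solid line at equal levels and dashed lines at 2-fold. *Acta2*, *Tagln*, *Myl9*, *Tpm1*, *Tpm2* and *Mylk* lie above the upper dashed line and *Ramp2*, *Ednra*, *Emcn*, *Foxf2* and *Flt1* below the lower one.

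Many smooth muscle genes carry the CArG box near their start, the motif bound by serum response factor. It was looked for on the gene's strand in the 250 bases before the start site given by RefSeq (GRCm38.p6 table), as 2 C, 6 bases of A or T and 2 G, a form that reads as a CArG box on the other strand too. Of the 18 contractile genes, 14 had a promoter in the table, and 3 of these (*Cnn2*, *Myl9* and *Srf*) held the box (21.4%), as against 439 of 27025 genes (1.62%). With 1 of the 6 middle bases changed to C or G, a match was found in 3 of the 14 (*Acta2*, *Mrtfa* and *Myl9*) and in 8.33% of all genes. The exact match of *Myl9* and the changed matches of *Acta2* are shown with 10 bases on each side and the box in capitals. These genes were 2-fold or more higher at E12.5 in the main-cluster cells. *Cnn2*, which also held the exact box, was within 2-fold. *Tagln*, *Tpm1*, *Tpm2* and *Mylk*, which were higher, were not among the genes with a match. Whether the box goes with the stage ratio was not tested. The changed match of *Myl9* is not shown. Placed on GRCm39 by sequence, the *Myl9* window is chr2:156617213-156617242 on the plus strand, with its box from 161 to 152 bases before the start site. The *Acta2* windows are chr19:34232838-34232867 and chr19:34232788-34232817 on the minus strand, with boxes 84 to 75 and 34 to 25 bases before it. GENCODE M39 annotates exons of longer transcripts, with untranslated sequence, at all 3 windows, so the start sites of the 2 annotations differ. The *Myl9* window also overlaps an exon of another gene, *5730471H19Rik*. A match is a description and not a measured site.
Myl9, exact box: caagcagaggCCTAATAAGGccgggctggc
Acta2, 1 base changed, distal: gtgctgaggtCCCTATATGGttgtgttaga
Acta2, 1 base changed, proximal: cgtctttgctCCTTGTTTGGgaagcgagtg

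Within E12.5, the main-cluster cells were not alike. They were split by their *Acta2* UMIs, a split chosen after the values were seen, into 10 cells with 0, 7 with 1 to 9 and 12 with 10 or more, at medians of 5801, 7089 and 6296 UMIs. *Abcc9*, *Kcnj8*, *Vtn*, *Pdgfrb* and *Rgs5* are gate genes, and a cell poor in some of them had to hold others to be counted, so their levels in the split are descriptions. *Abcc9* stood at 408 CPM (267–598) in the cells without *Acta2*, at 102 CPM (33.1–238) in the middle cells and at 49.2 CPM (13.4–126) in the cells with most. *Kcnj8* stood at 644 (462–873), 529 (346–776) and 221 CPM (131–350). *Vtn* was at 1711 (1405–2064), 1120 and 923 CPM (726–1157), and *Pdgfrb* at 408 (267–598), 326 (186–529) and 234 CPM (141–365). *Ndufa4l2* stood at 502 (344–709), 590 (395–848) and 234 CPM (141–365). *Rgs5* stood at 989 (760–1265), 1384 (1075–1755) and 1267 CPM (1034–1537), and *Igfbp7* at 722 (529–963), 672 (462–944) and 1058 CPM (846–1307). For *Rgs5*, *Pdgfrb* and *Igfbp7* the intervals of all groups overlapped. For *Ndufa4l2* the interval of the cells without *Acta2* overlapped those of both other groups, which did not overlap each other. For *Abcc9*, *Kcnj8* and *Vtn* the intervals of the cells without *Acta2* and the cells with most did not overlap. *Tagln* and *Myl9* followed *Acta2*, with 62.8 and 502 CPM in the cells without it and 3384 and 3002 CPM in those with most. In the 47 main-cluster cells of E11.5 without *Acta2*, *Kcnj8* and *Abcc9* stood at 740 (657–831) and 400 CPM (339–468).

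**Figure D5:**
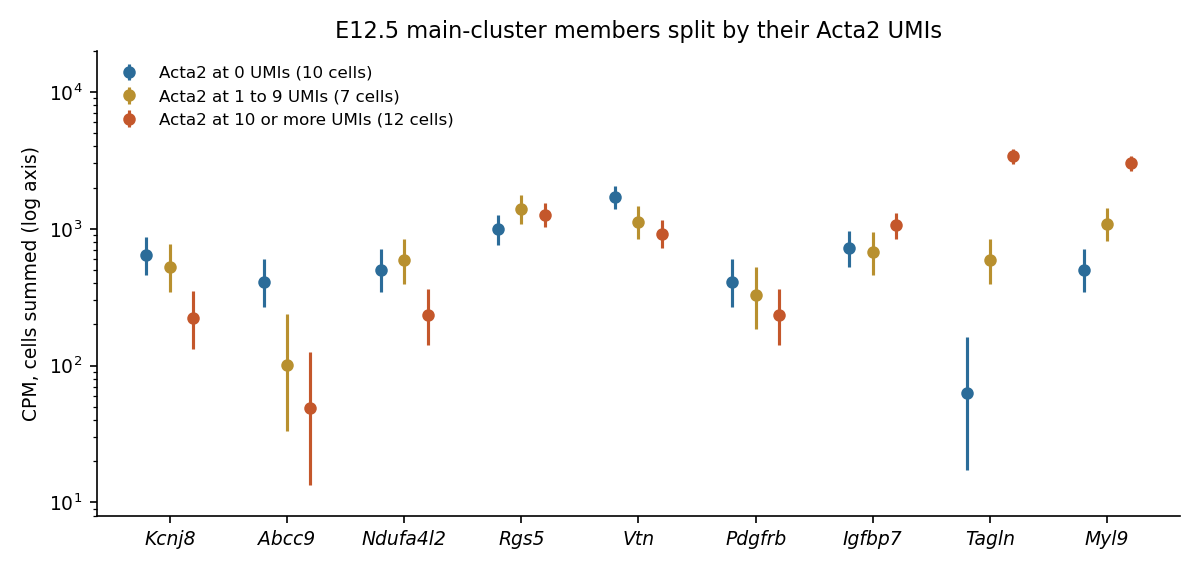
Level in CPM (vertical axis, logarithmic) of 9 genes in the E12.5 main-cluster cells with 0, 1 to 9 and 10 or more *Acta2* UMIs (colours), with bars for the 95% counting interval. *Kcnj8* and *Abcc9* are lower, and *Tagln* and *Myl9* higher, in the 12 cells with 10 or more.

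The gate left out further cells rich in *Acta2*. Of the 15 cells of the E12.5 main cluster that were not pericyte-like by the gate, 3 held at least 2 of the endothelial genes *Pecam1*, *Cdh5* and *Cldn5* and had 3456 CPM of *Cldn5* and 0 of *Acta2*. Among the other 12, 10 had 10 or more *Acta2* UMIs, and together they stood at 10824 CPM of *Acta2*, 578 of *Rgs5*, 110 of *Kcnj8* and 36.7 of *Abcc9*, with 8 UMIs of *Sox10*. The highest doublet score among them was 0.367. At E11.5, 3 cells of the main cluster were outside the gate, of which 2 were rich in endothelial genes.

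Of the 15 endothelial genes, 4 reached 50 UMIs, and 3 of these were 2-fold or more lower in the main cluster (4 over all pericyte-like cells) and 0 higher, against 6.54% (6.66%) of all genes lower. *Ramp2*, a co-receptor for adrenomedullin, was in 48 of 52 main-cluster cells of the earlier stage and 10 of 29 of the later. Its level was 455 CPM at E11.5 and 77.3 CPM at E12.5, a ratio of 0.17 (0.0934–0.287). *Emcn*, the surface mucin endomucin, was at 162 and 41.2 CPM, a ratio of 0.255 (0.106–0.529), and *Flt1*, a VEGF receptor, at 118 and 41.2 CPM, a ratio of 0.351 (0.144–0.742). *Esam*, an adhesion molecule of vascular cells, was at 120 and 92.7 CPM, a ratio of 0.775 (0.428–1.34). Of the list, *Cldn5* and *Sox17* were at 0 in the pericyte-like cells of both stages. The other 13 genes had UMIs at E11.5, among them *Cdh5* (2), *Kdr* (4) and *Tie1* (2), which were at 0 at E12.5. At least 2 genes of the list were held by 49 of the 53 cells and by 19 of the 47. *Ramp2* was the most abundant endothelial gene in the main cluster of E11.5, and *Esam* in that of E12.5. Over all 47 cells of E12.5 it was *Ramp2*, with 14 of its 29 UMIs in the 18 cells outside the main cluster. The whole endothelial list summed to 962 and 295 CPM in the pericyte-like cells, to 26.4 and 31.7 CPM in glia-gated cells and to 132 and 229 CPM in mesenchyme-gated cells. The part of endothelial RNA in these values was not tested.

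Among mural genes other than the gate genes, 15 reached 50 UMIs in the main clusters, of which 3 were 2-fold or more higher at E12.5 and 3 lower (3.97% and 6.54% of all genes), and over all pericyte-like cells 16 did, 1 higher and 7 lower. *Foxf2*, a forkhead transcription factor needed by brain pericytes, was at 146 CPM at E11.5 and 36.1 CPM at E12.5, a ratio of 0.246 (0.0954–0.537). *Ednra*, the endothelin receptor of vascular smooth muscle, was at 262 and 72.1 CPM, a ratio of 0.276 (0.146–0.481), and *Rgs4*, a relative of *Rgs5*, at 361 and 175 CPM, a ratio of 0.485 (0.325–0.705). The 3 higher genes were *Pth1r* (a ratio of 3.49), *Ebf2* (2.59) and *Notch3*, which stood at 64.3 and 129 CPM, close to the threshold of 2-fold. *Ndufa4l2* was at 698 and 412 CPM, a ratio of 0.59 (0.456–0.756). *Igfbp7* was at 1776 and 850 CPM, a ratio of 0.479 (0.402–0.567), and *Gng11*, a G protein subunit, at 1330 and 520 CPM, a ratio of 0.391 (0.314–0.484).

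The 10 genes with the smallest ratio in the main clusters, beside ribosomal genes treated below, included *Kcnrg*, which stood at 155 CPM before and at 0 UMIs after, *Prkcb*, a protein kinase C (217 and 10.3 CPM), *Dcbld2* (111 and 5.15 CPM), *Rnase4* (142 and 10.3 CPM) and *Prom1* (133 and 15.5 CPM). Over all pericyte-like cells *Car2*, a cytoplasmic carbonic anhydrase (159 and 12.8 CPM), and *Foxq1*, a forkhead factor (249 and 25.6 CPM), were also among the 10. Beside contractile genes, the 10 with the largest ratio in the main clusters held *Gpc3*, a cell surface proteoglycan (17.7 and 489 CPM), *Bst2* (37.7 and 350 CPM), *Cacna2d1*, a calcium channel subunit (35.5 and 227 CPM), and *Ccnd2*, a cyclin (37.7 and 232 CPM). The stage ratios in glia-gated cells were 0.957 for *Gpc3*, 1.71 for *Cacna2d1* and 0.738 for *Ccnd2*. That of *Bst2* was 6.96, so this gene was also higher at E12.5 in glia-gated cells.

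A separate set of genes stood higher at E12.5 over all pericyte-like cells with most of its UMIs in the 18 cells outside the main cluster. *Lum*, the matrix proteoglycan lumican, was in all 18 with between 4 and 30 UMIs and a median of 9.5, at 1716 CPM, against 15.5 CPM in the 29 main-cluster cells. *Dcn*, the related proteoglycan decorin, was at 939 against 0 CPM. *Cldn11*, a tight junction protein, stood at 719 against 10.3 CPM and *Slc6a13*, a GABA transporter of the meninges, at 516 against 0 CPM. *Cxcl12*, a chemokine, stood at 922 against 0 CPM and *Aldh1a2*, a retinoic acid synthesizing enzyme, at 1006 against 30.9 CPM. Over all pericyte-like cells the stage ratios of *Lum*, *Cxcl12* and *Aldh1a2* rested on 1, 2 and 4 UMIs at E11.5 and were 299.6 (53.2–11889), 79.3 (21.4–663) and 45.4 (17.3–169). The main-cluster cells of E12.5 held 3, 0 and 6 UMIs of these genes. Of the 1030 genes with at least 50 UMIs in the 47 cells of E12.5, 111 (10.8%) were 2-fold or more higher in the main cluster than in the other 18 cells and 86 (8.35%) lower. The clusters were made from these same profiles, so the differences between the main cluster and the other 18 cells are descriptions.

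The 18 cells were compared with mesenchyme-gated cells of E12.5, which had 3 or more of 7 mesenchymal genes with *Pdgfra* or *Lum* among them. Against these 117 cells, 53 of 2983 genes (1.78%) were 2-fold or more higher in the 18 cells and 190 (6.37%) lower, with a median ratio of 0.995. A median ratio near 1 does not by itself show likeness. For all pericyte-like cells of E12.5 against neuron-gated cells it was 0.982. *Rgs5* was 6.64 times (4.42–10.0) as high, *Vtn* 5.08 times (4.13–6.25) and *Pdgfrb* 2.57 times (1.40–4.55), genes on which the gate chose the cells. For the gate genes *Kcnj8* (12.3, 0.639–725), *Abcc9* (6.14, 0.823–45.9) and *Cspg4* (2.05, 0.202–11.4) the interval included 1. The mesenchyme-gated cells themselves held a UMI of *Vtn* in 32.5% and of *Rgs5* in 19.7%. Summed over 23 mesenchymal genes, the 18 cells stood at 4904 CPM and the mesenchyme-gated cells at 4155 CPM, against 675 CPM in the main cluster of E12.5 and 594 CPM in that of E11.5. The 23 genes include the 7 that chose the mesenchyme-gated cells, so these sums are descriptions.

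Signalling genes were given by pathway, with counts over the main clusters. Of 6 PDGF genes only *Pdgfrb* reached 50 UMIs. *Pdgfra*, the receptor of fibroblast-like mesenchyme, was at 0 in the main-cluster cells of both stages and at 110 CPM in the 18 other cells. Of 16 Notch genes 6 reached 50 UMIs, of which 1 (*Notch3*, close to the threshold) was higher and 0 lower, against 3.97% and 6.54% of all genes. The Notch targets *Heyl* (381 and 314 CPM, a ratio of 0.824, 0.605–1.11) and *Nrarp* (206 and 242 CPM, a ratio of 1.17, 0.809–1.69) did not differ beyond counting error, and *Hes1* was at 297 and 180 CPM, a ratio of 0.607 (0.406–0.886). The ligand *Jag1* stood at 120 and 175 CPM, a ratio of 1.46 (0.924–2.29). Of 18 TGF-beta and BMP genes 4 reached 50 UMIs, with 1 (*Id1*, a ratio of 2.08, 1.18–3.66) higher and 0 lower, against the same shares. Over all pericyte-like cells 5 reached it, with 0 higher and 2 lower, against 5.47% and 6.66% of all genes. In the main clusters *Tgfb1*, the ligand, was at 266 and 139 CPM, a ratio of 0.523 (0.331–0.799), and its co-receptor *Eng* at 142 and 97.9 CPM, a ratio of 0.69 (0.39–1.17). Of 15 angiopoietin, VEGF and sphingosine phosphate genes 2 reached 50 UMIs, *Nrp1* (a ratio of 0.793, 0.501–1.22) and *Flt1*. *Angpt1*, the angiopoietin that pericytes supply to endothelium, had 2 UMIs in the 52 earlier cells and 8 in the 29 later ones.

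Of 20 fibrillar and interstitial matrix genes, 9 of the 12 that reached 50 UMIs were 2-fold or more higher at E12.5 over all pericyte-like cells (5.47% of all genes). In the main clusters 1 of 6 was higher (3.97% of all genes), *Col1a2* (93.1 and 211 CPM, a ratio of 2.27, 1.44–3.57). Of 18 basement membrane genes 10 reached 50 UMIs over all pericyte-like cells, with 3 higher and 1 lower (5.47% and 6.66% of all genes), and 8 did in the main clusters, with 0 higher and 3 lower (3.97% and 6.54%). *Col4a1* and *Col4a2*, the chains of type IV collagen, stood at 656 and 726 CPM and at 315 and 319 CPM in the main clusters, while *Nid1*, nidogen, was at 271 and 134 CPM, a ratio of 0.495 (0.311–0.761), and *Fn1*, fibronectin, at 211 and 82.4 CPM, a ratio of 0.391 (0.215–0.669). Of 14 integrin genes 4 reached 50 UMIs in the main clusters and 0 passed 2-fold (3.97% and 6.54% of all genes). *Itgb1* stood at 386 and 500 CPM and *Itga1* at 220 and 294 CPM. Of 25 neurotrophic and guidance ligands only *Mdk* reached 50 UMIs in the main clusters, within 2-fold. Over all pericyte-like cells 3 reached it, with 2 higher and 0 lower (5.47% and 6.66% of all genes). *Ptn*, a heparin-binding growth factor, was at 64.3 and 77.3 CPM in the main clusters against 1218 CPM in the 18 other cells.

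Of 12 imprinted genes, 8 reached 50 UMIs in the main clusters and 0 passed 2-fold (3.97% of all genes were higher and 6.54% lower). *Meg3* was at 2882 and 3143 CPM, *Mest* at 1938 and 1613 CPM and *Dlk1* at 1120 and 1716 CPM, a ratio of 1.53 (1.33–1.76). The list summed to 7975 and 9454 CPM, against 1844 and 2332 CPM in glia-gated cells, 5463 and 6808 CPM in mesenchyme-gated cells and 7509 CPM in the 18 other cells. Cells with 2 or more of 6 genes of the G2 and M phases (thinned to 2000 UMIs) made up 15.1% (6.75–27.6) of the 53 earlier pericyte-like cells and 10.6% (3.55–23.1) of the 47 later ones, and 50.9% and 25.5% without thinning. Of the thinned glia-gated cells, 250 of 481 (47.4–56.5%) and 514 of 1353 (35.4–40.6%) met this count. The summed level of the G2 and M genes went the other way from the shares. It was 592 and 953 CPM in the main clusters, and 597 and 679 CPM over all pericyte-like cells. Of the 4 that reached 50 UMIs in the main clusters, 1 was 2-fold or more higher and 0 lower (3.97% and 6.54% of all genes). Over all pericyte-like cells 5 reached it and 0 passed 2-fold (5.47% and 6.66% of all genes). Of 10 S phase genes 5 reached 50 UMIs in the main clusters and 0 passed 2-fold (3.97% and 6.54% of all genes). Over all pericyte-like cells 5 reached it, with 0 higher and 2 lower (5.47% and 6.66% of all genes). Of 22 channel and transporter genes 10 reached it in the main clusters, with 0 higher and 3 lower (3.97% and 6.54% of all genes). Over all pericyte-like cells 12 did, with 2 higher and 5 lower (5.47% and 6.66%). The 3 lower in the main clusters were the gate gene *Abcc9*, *Trpc6*, a cation channel (97.6 and 41.2 CPM), and *Gjc1*, a gap junction connexin (208 and 77.3 CPM). *Hox* genes, which record position along the trunk, summed to 412 and 701 CPM, with *Hoxb2* the most abundant at 74.8 and 106 CPM, to 1117 and 756 CPM in glia-gated cells and to 791 and 792 CPM in mesenchyme-gated cells. Of 12 dissociation and stress genes 8 reached 50 UMIs in the main clusters and 0 passed 2-fold (3.97% and 6.54% of all genes).

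Some differences between the stages were also present in glia-gated cells. The ribosomal protein gene *Rps27* stood at 5277 and 155 CPM in the main-cluster cells and at 5377 and 221 CPM in glia-gated cells, while its near-identical copy *Rps27rt* stood at 151 and 855 CPM and at 144 and 931 CPM. *Rpl9* and *Rpl10* were lower, and *Rpl9-ps6*, *Rpl10-ps3* and *Rpl36a-ps1* higher, in the same way. Reads can be split between such copies by the counting, so these genes are reported as uncertain. Of the 88 genes higher at E12.5 in the main clusters, 78 reached 50 UMIs in glia-gated cells and 12 were 2-fold or more higher there too. Of the 145 lower genes 124 reached it and 18 were lower there. Over all genes in glia-gated cells 6.78% were higher and 1.13% lower. Genes that mark the sex of the embryo differed between the libraries. *Xist*, expressed from the inactive X chromosome of females, was held without Y-linked genes by 10 of the 53 pericyte-like cells at E11.5, while 28 held Y-linked genes (*Ddx3y*, *Uty*, *Eif2s3y* or *Kdm5d*) alone, 1 held both and 14 neither. At E12.5 0 of 47 held *Xist* (0–7.55%), 34 held Y-linked genes and 13 held neither. The same held for glia-gated cells, of which 106 of 481 held *Xist* alone and 235 Y-linked genes alone at E11.5, against 0 and 870 of 1385 at E12.5, where 1 held both. The E12.5 library thus held almost no *Xist*, although it is described as a pooled litter. The part of embryo sex in the stage ratios was not tested.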

How the data were processed

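The authors aligned the reads to an mm39 reference with Cell Ranger (7.0 in the submitters' processing notes, 7.0.1 in the matrix headers) and deposited UMI counts, raw whole numbers for 33207 genes and each called barcode. Whether intronic reads were counted is not given in the sources used here. Barcodes with over 10% mitochondrial UMIs, or under 2000 (E11.5) or 1000 (E12.5) UMIs, were removed. Members and gene lists were chosen with earlier results of these data known. Scrublet scores (scanpy 1.11.5) were computed for each library and no cell was removed on them. Clusters used 3000 variable genes, 30 components, 15 neighbours and Leiden resolution 1 (python-igraph 0.11.9), without the gate genes and *Sox10*.

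UMIs were summed over cells and scaled to CPM. Ratios were taken for genes with at least 50 UMIs over both sides, and past 2-fold is a size, not a test. Levels are 3′ UMI counts and were not corrected for transcript length. Intervals were computed with scipy 1.17.1 and checked on simulated data. Comparison cells were gated by their own genes, members excluded: glia by *Sox10* and at least 2 of 6 glial genes (some genes are not reported here), mesenchyme by no *Sox10* and at least 3 of *Pdgfra*, *Lum*, *Dcn*, *Twist2*, *Prrx1*, *Foxc1* and *Foxd1*, and neurons by no *Sox10* and at least 4 of *Isl1*, *Stmn2*, *Elavl3*, *Elavl4*, *Pou4f1*, *Nefl*, *Nefm* and *Tlx3*. Genes were named by rule: the gate genes, *Sox10*, *Egr2* and *Prss56*, the 15 with the largest lower ratio to the rest, the 10 largest and 10 smallest stage ratios with no cell holding over 25% of the UMIs, and up to 5 of each of 25 lists by level. Others, such as *Foxf2*, *Ednra*, *Pth1r*, *Cnn1* and *Actg2*, were named after their values were seen. There were 35 alternatives of processing, and 1 more chosen after seeing the data.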

Additional observations from a re-analysis of the deposited data

Results flagged for a closer look

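Among the 591 barcodes of E11.5 removed by the filters on depth and mitochondrial share, 7 met the gate (1.18%, 0.477–2.43), at a median of 1052 UMIs and 10.7% mitochondrial UMIs. They were looked at because they lie outside every comparison above. At E12.5, 1 of 199 removed barcodes met it.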

How the results depend on the processing

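No paired analysis was possible because each stage has 1 library and replicate numbers come only from accession order. On recomputation 68 values stayed within 1.5 times a reported count or inside the counting interval of a reported share, which is wide in so few cells, and 24 did not. Inside it, the *Acta2* share at E11.5 (1.89%) was 9.43% without thinning, and the *Egr2* shares (0%) were 5.66% and 2.13%. With a minimum of 20 UMIs, 1692 genes were higher than in the rest at E11.5 (1163 with 50). For the 24 the cause was not tested. The share of pericyte-like cells at E12.5 (1.32%) was 0.73% with 4 gate genes required and also without *Vtn* in the gate, 0.674% without *Rgs5*, 0.926% without *Pdgfrb*, 0.854% with the gate applied after thinning and 0.814% with only the main cluster, the last chosen after seeing the data. The 143 higher and 174 lower genes between the stages became 491 and 450 with a minimum of 20 UMIs, 48 and 71 with 100 UMIs and 73 and 68 at 3-fold. The higher genes were 83 with 4 gate genes required and 88 in the main clusters. Against all other kept cells, 598 and 949 genes were 3-fold or more higher at E11.5 and E12.5, and 1167 were 2-fold or more higher at E12.5 with each gene's top cell left out (1851 with it). The thinned *Acta2* share was 0% at E11.5 with 2 UMIs required, and at E12.5 (31.9%) it was 48.9% without thinning and 51.7% in the main cluster. The *Notch3* shares were 37.7% and 44.7% without thinning, and 1.89% and 4.26% with 2 UMIs required. At 1 library per stage and 29 to 53 cells a group, counting error limits most genes below 50 UMIs.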
